A study of Mus musculus with 67 samples.

Results

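Chromatin accessibility was measured with CaTS-ATAC (crosslinked and transcription-factor sorted ATAC-seq) while mouse embryonic stem cells differentiated into ventral neural progenitors, and the elements lying far from any annotated gene start were examined. Of 111638 elements with an accessibility value, 12930 (11.6%) lay more than 200000 bp from the nearest transcription start site (TSS) in the deposited peak annotation, and these are called distant elements here. They were chosen by position alone and were compared with the 37493 elements lying 10000 to 50000 bp from a TSS, called nearer elements.

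All cells came from a single mouse embryonic stem cell line, HM1. Every culture received bFGF and LGK first, then bFGF with CHIR99021, SB-431542 and DMH1. From day 3 onwards the medium held 100 nM retinoic acid (RA) together with 0, 10, 100 or 500 nM SAG, an agonist of Smoothened that activates Sonic hedgehog signaling. The day 3 samples are labeled 0 nM SAG, and the step from day 3 to day 4 coincided with this change of medium. Cells were fixed, transposed with Tn5, and then sorted by antibodies to intracellular transcription factors into neural progenitor (NP) types named after the domains of the ventral neural tube, which run from dorsal to ventral as p0-1, p2, pMN and p3. The 67 samples comprised 3 of day 3 neuromesodermal progenitors (NMPs), and 4 to 6 of each NP type on each of days 4, 5 and 6. The p0-1 samples came from 0 and 10 nM SAG and the p2 samples from 10 and 100 nM, whereas pMN and p3 both came from 100 and 500 nM, with 2 samples of each type at each concentration on day 6. NP type and SAG concentration therefore cannot be fully told apart for p0-1 and p2. Replicates were independent differentiations per the study, and pooled samples of 1 type at both SAG concentrations can share a differentiation. By their titles, all day 6 pMN and p3 samples carried replicate number 2 or 3. The 4 samples of each of these types may therefore stem from only 2 differentiations, while the tests treat them as separate samples.

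Reads in elements per sample ranged from 9298160 to 29985325, with a median of 20254011. The sorted identities were checked at the elements closest to the start sites of known marker genes: the Cdx2 element (an NMP and posterior marker) averaged 3686 normalized counts in NMPs against 264 to 336 on day 6, the Olig2 element (pMN) averaged 2325 in day 6 pMN against 408 to 1005 in the other types, the Foxa2 element averaged 1662 in day 6 p3 against 261 to 306, and the Dbx1 element (p0-1) averaged 2549 in day 6 p0-1 against 631 to 1055. The Foxa2 element was also accessible in NMPs, at 1494. No marker element set p2 apart, since the Irx3 element averaged 2566 in day 6 p2, 3014 in p0-1 and 2375 in pMN. The day 4 p0-1 sample at 10 nM SAG, replicate 3, stood apart with the lowest share of its group in both distant and nearer elements. Leaving it out moved none of the counts of called distant elements given below by more than 1.5 times.

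Enhancers are stretches of DNA that bind transcription factors and raise transcription of genes that can lie far away on the same chromosome. They become accessible to Tn5 when bound factors displace nucleosomes, and their accessibility differs more between cell types than that of promoters. Long stretches without protein-coding genes, known as gene deserts, often flank genes for developmental transcription factors and cell surface proteins, and hold many enhancers that act over long distances.

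The distant elements held to the idea of a gene desert only in part. By the deposited annotation 9104 were intergenic (70.4%) and 3721 were intronic (28.8%), and the median distance to the nearest TSS was 331746.5 bp, reaching 2066347 bp. A total of 3061 lay beyond 500000 bp and 579 beyond 1000000 bp. Against the GENCODE M21 annotation of GRCm38, which lists many noncoding transcripts, 10605 (82.0%) were more than 200000 bp from every protein-coding TSS, but only 1055 (8.16%) were that far from every TSS, and 361 lay within 1000 bp of one. Inside protein-coding genes lay 3938 (30.5%), and the other 8992 lay in 807 intervals between protein-coding genes.

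The sequences below are the central 300 bases of 8 distant elements with the largest changes in the comparisons that follow, and are shown so that the reader can see what lies under the changing accessibility. They are from GRCm38 (mm10), forward strand, 5′ to 3′. Capitals mark matches on either strand to any of 12 short motif families, of which FOX (TGTTTAC), SOX (ACAATG), homeodomain (TAATTA), TEAD (GGAATG), RFX (GTTGCCA) and E-box (CAGCTG or CATATG) had matches in these windows. Each element is named by the gene with the closest annotated TSS, which does not mean that it regulates that gene.

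The first pair was among the largest changes between NMPs and day 4 pMN, the first gaining and the second losing accessibility.
Eda2r element, chrX:97645397-97645696, intergenic: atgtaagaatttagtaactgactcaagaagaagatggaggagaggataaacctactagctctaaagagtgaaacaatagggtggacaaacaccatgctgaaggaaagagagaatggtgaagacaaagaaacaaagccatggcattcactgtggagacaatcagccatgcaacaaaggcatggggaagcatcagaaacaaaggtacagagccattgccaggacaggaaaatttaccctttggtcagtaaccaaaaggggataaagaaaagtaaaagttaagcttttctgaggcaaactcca
Tenm2 element, chr11:36604982-36605281, intronic: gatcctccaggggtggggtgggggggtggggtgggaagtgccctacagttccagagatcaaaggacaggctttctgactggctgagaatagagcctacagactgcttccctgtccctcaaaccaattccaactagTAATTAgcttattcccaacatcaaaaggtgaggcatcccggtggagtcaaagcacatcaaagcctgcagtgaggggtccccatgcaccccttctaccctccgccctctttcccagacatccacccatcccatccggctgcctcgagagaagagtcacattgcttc

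The second pair differed most between p3 and pMN on day 6, the first higher in p3 and the second lower.
Mir466f-4 element, chr13:71373301-71373600, intergenic: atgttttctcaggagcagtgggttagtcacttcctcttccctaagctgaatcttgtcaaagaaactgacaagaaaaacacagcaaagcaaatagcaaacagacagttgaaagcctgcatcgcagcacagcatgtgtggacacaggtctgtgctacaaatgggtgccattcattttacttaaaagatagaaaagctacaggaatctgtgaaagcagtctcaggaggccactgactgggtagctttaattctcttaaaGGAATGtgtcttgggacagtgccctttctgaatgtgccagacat
Esr1 element, chr10:4875190-4875489, intronic: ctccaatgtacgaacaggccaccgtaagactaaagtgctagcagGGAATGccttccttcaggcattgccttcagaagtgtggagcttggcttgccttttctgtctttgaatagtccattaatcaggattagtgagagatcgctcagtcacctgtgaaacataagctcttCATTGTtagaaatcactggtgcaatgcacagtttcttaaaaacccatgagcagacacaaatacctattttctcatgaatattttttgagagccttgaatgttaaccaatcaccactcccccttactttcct

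The third pair differed most between p0-1 and pMN on day 6, the first higher in pMN and the second lower.
2810032G03Rik element, chr12:6001098-6001397, intergenic: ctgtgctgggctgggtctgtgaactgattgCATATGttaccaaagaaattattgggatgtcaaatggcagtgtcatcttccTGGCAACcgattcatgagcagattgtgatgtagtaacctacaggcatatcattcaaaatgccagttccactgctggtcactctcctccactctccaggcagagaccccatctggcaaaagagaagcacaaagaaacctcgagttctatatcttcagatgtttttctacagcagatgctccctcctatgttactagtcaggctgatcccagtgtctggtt
Grin2a element, chr16:9701170-9701469, intronic: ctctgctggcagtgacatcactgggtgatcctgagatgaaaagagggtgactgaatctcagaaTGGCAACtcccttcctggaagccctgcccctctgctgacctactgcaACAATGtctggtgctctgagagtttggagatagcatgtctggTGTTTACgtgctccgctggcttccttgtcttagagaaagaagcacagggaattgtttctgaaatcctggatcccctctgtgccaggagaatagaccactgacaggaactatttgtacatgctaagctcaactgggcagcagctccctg

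The last pair changed most in pMN from day 4 to day 5, the first gaining and the second losing accessibility.
Npas3 element, chr12:53536901-53537200, intronic: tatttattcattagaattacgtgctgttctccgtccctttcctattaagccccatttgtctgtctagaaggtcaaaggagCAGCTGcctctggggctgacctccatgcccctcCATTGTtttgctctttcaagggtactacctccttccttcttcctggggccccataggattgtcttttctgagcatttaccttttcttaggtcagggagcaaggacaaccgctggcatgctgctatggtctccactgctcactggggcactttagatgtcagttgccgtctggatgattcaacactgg
Pmp22 element, chr11:63524711-63525010, intergenic: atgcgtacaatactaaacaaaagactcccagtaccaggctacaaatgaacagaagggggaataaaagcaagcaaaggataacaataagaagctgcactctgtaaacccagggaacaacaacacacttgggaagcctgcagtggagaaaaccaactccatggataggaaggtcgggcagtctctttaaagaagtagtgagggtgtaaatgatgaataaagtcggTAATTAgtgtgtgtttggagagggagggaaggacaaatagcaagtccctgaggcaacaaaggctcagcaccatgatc

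None of the motif letters searched were found in the Eda2r window. The Grin2a window held 3 matches, to RFX, SOX and FOX, and the other windows held 1 or 2. A match describes the letters in the window and is not evidence that a factor bound there.

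Distant elements were weaker and narrower than elements closer to genes but differed more between conditions. Their median normalized count over all samples was 26.1, against 36.4 for nearer elements and 41.4 for all elements, and their median width was 673 bp against 867 and 883 bp. A mean above 100 normalized counts, the minimum used for testing, was reached over all samples by 1908 distant elements (14.8%), by 19.9% of nearer elements and by 28.4% of all elements. The SD over the 25 condition means, on the variance-stabilized (VST) log2 scale, had a median of 0.709 in distant elements, 0.558 in nearer elements and 0.560 in all elements. Among elements with a mean above 100 the contrast was wider, at 1.03, 0.639 and 0.394. The highest and lowest condition means lay over 2 log2 units apart in 84.3% of distant and 62.6% of nearer elements. These values describe the elements and were not tested.

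The share of reads falling in distant elements separated NMPs from almost all NP samples. In the 3 NMP samples it was 1.28%, 1.53% and 1.91% of reads in elements (1.57% ± 0.316, SD, n = 3). On day 4 it averaged 3.45% ± 0.977 in p0-1 (n = 6), 4.09% ± 0.511 in p2 (n = 6), 4.17% ± 0.344 in pMN (n = 6) and 3.49% ± 0.590 in p3 (n = 5). The one overlap was the day 4 p0-1 sample that stood apart, at 1.90%. By day 6 the shares were 4.89% ± 0.489 in p0-1 (n = 5), 5.26% ± 0.326 in p2 (n = 6), 5.35% ± 0.334 in pMN (n = 4) and 4.36% ± 0.204 in p3 (n = 4). The 4 day 6 p3 samples, from 4.21% to 4.65%, all lay below the 4 pMN samples, from 4.99% to 5.67%, and the 2 types came from the same SAG concentrations. Both types carried only replicate numbers 2 and 3, so their samples may not be independent. Nearer elements took 16.5% to 18.4% of reads in every group on average, NMPs included. A higher share of cells with an open element and more open chromatin in each cell cannot be told apart in these pooled cells.

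**Figure D1:**
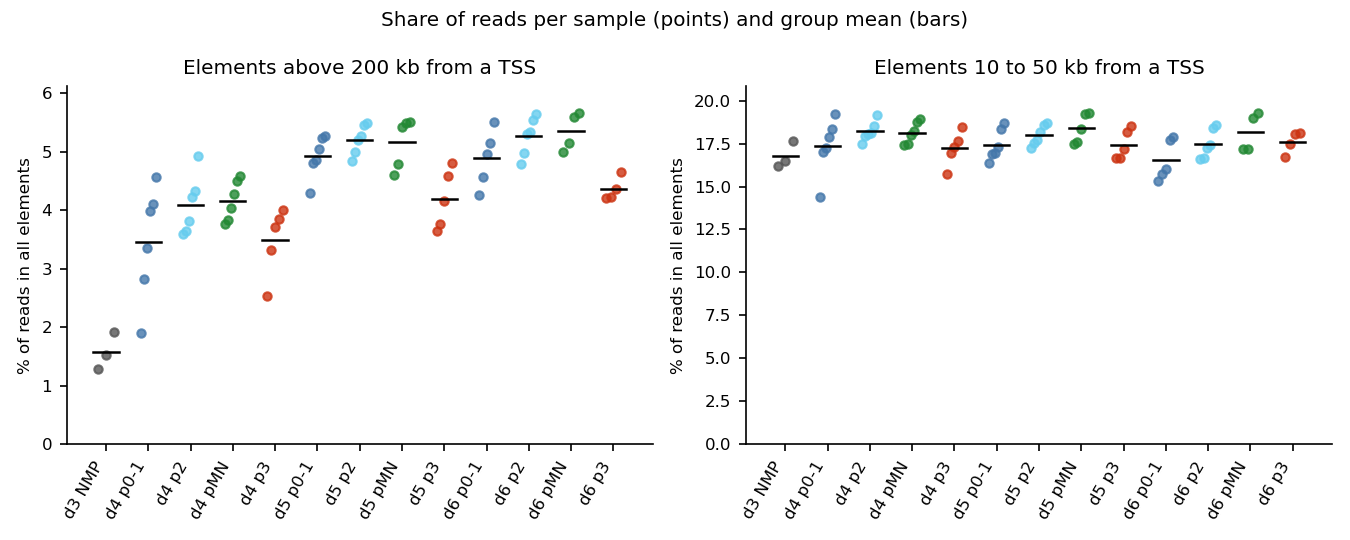
Share of reads in elements that fell in distant elements (left, above 200 kb from a TSS) and in nearer elements (right, 10 to 50 kb), in percent, for each sample (points) with the group mean (bars), by day and cell type. Distant elements rise from 1.28% to 1.91% in NMPs to 4.21% or more in the day 6 samples, and nearer elements stay between 14.4% and 19.3% throughout.

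The first comparison asked which elements changed as NMPs became neural progenitors. Calls required an adjusted p under 0.01 (limma on VST values, Benjamini-Hochberg over all elements tested) and a log2 fold change beyond 2 in either direction, where the fold change is that of mean normalized counts plus 1. From day 3 to day 4, 1005 of the 1512 distant elements tested were higher in at least 1 NP type (66.5%), against 26.2% of nearer elements and a background of 20% of all elements tested. Only 92 were lower (6.08%), against 12.6% of nearer elements and 8.66% of all elements. The minimum was applied to the mean over all samples of a fit, which held 3 NMP samples and 5 or 6 NP samples. An element open in NPs alone therefore passed at a lower count than one open in NMPs alone, which favors gains over losses. Without a minimum, 6565 of all 12930 distant elements were higher (50.8%) and 1073 lower (8.30%), against 25.3% and 14.4% of nearer elements.

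The direction was seen across the whole set and not among called elements alone. The set itself is not free of selection, since elements are peaks found in at least 2 replicates and 3 of the 67 samples were NMPs. An element open only in NPs thus had more chances to enter than one open only in NMPs. Nearer elements entered in the same way but were stronger. Of all 12930, 10516 (81.3%) had a higher mean in day 4 pMN than in NMPs, with a median log2 fold change of 1.68, while 51.4% of nearer elements did, with a median of 0.08. The corresponding shares in the other NP types were 77.2% (p0-1), 80.7% (p2) and 78.1% (p3). These comparisons share the NMP samples. Setting every sample to a common median over the elements tested shifted log2 values between NMPs and day 4 types by 0.41 to 0.47. Over all elements tested the median log2 fold change to day 4 pMN was -0.486, so centering raised day 4 values. It moved values in the direction of the gains and so cannot test them. With it, 1132 distant elements in place of 1097 were called in either direction.

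**Figure D2:**
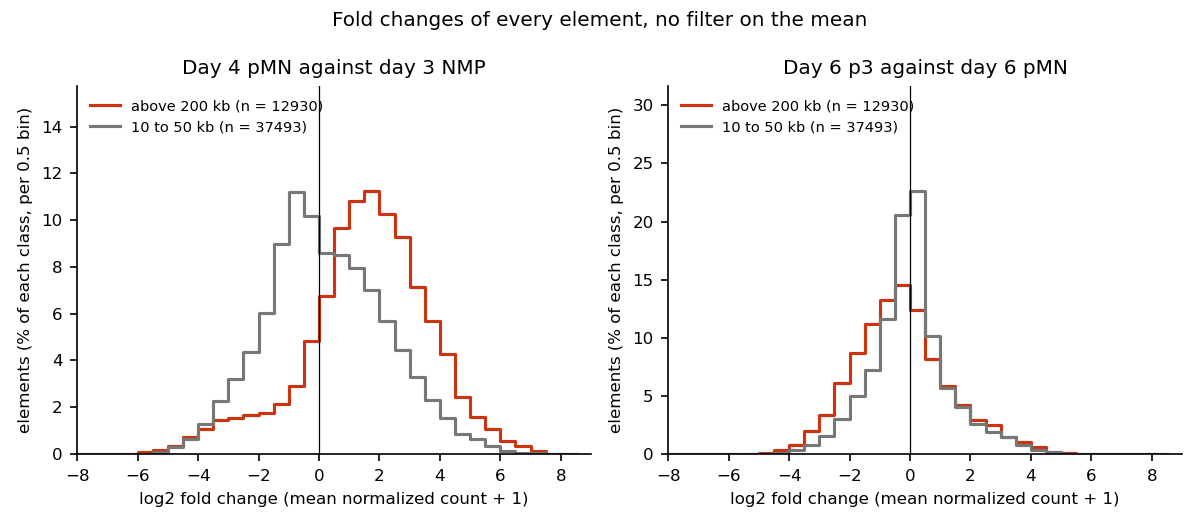
Distribution of log2 fold changes (mean normalized count plus 1) over every distant element (red, n = 12930) and every nearer element (gray, n = 37493), with no minimum, for day 4 pMN against NMPs (left) and day 6 p3 against pMN (right), as percent of each class per bin of 0.5. On the left distant elements center above 0, with a median of 1.68 against 0.08, and on the right they extend further below 0 than nearer elements, with a median of -0.35 against 0.00.

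Some distant elements went from few or no reads in NMPs to high counts by day 4. The Eda2r element (intergenic, 268337 bp from the gene, which encodes a receptor of the TNF receptor family) had 0 reads in all 3 NMP samples. In the 6 day 4 pMN samples its lowest, median and highest normalized counts were 299.7, 372 and 450.3, and in the 5 day 4 p3 samples its counts were 212, 326, 374, 404 and 433. No NP sample of day 4 overlapped the NMPs, and the increase was at least 307-fold in pMN against a floor of 3 reads over the NMP group (VST difference 5.87 ± 0.155 SE, adjusted p = 9.46e-14). On days 5 and 6 its group means were 127 to 361, with the lowest in day 6 p0-1.

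The Ppp1r2-ps9 element also had 0 reads in the 3 NMP samples. It had 235.7 to 289 normalized counts in day 4 pMN, with a median of 259, at least 217-fold above the floor. By day 6 its means had fallen back to 15.4 in p0-1, 47.7 in p2, 90.6 in pMN and 125 in p3. The Nbea element (Nbea encodes neurobeachin, a protein of membrane traffic in neurons) had 2.70, 3.23 and 3.64 counts in NMPs and 887, 1093 and 1326 (lowest, median, highest) in day 4 pMN, a 266-fold difference (adjusted p = 2.38e-14). Its means on day 6 were lower than on day 4 in all 4 types, from 235 in p3 to 457 in pMN.

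The largest losses, named here, lay mostly inside genes, although 56 of the 92 distant elements called lower were intergenic. The Tenm2 element, in an intron of a teneurin, a synaptic adhesion protein, had 166, 440.5 and 461 counts in NMPs. In day 4 pMN its lowest, median and highest counts were 2.56, 5.39 and 9.21, a log2 fold change of -5.80 (adjusted p = 1.19e-09), and no NP group mean exceeded 5.40 on any day. The Kirrel3 element, in an intron of an adhesion gene of the immunoglobulin superfamily, fell from a mean of 322 to 5.04 in pMN and 4.90 in p3 (log2 fold changes -5.74 and -5.78). The other large losses were in an intronic element of Celf4, which encodes an RNA-binding protein, and in an intergenic element nearest Gramd3, at -6.11 and -5.82 in pMN.

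Among the 5 distant elements with the highest mean over all samples, 3 were nearly closed in NMPs. The Btbd3 element (chr2:137704800-137707245), the strongest, averaged 54.7 normalized counts in NMPs, 2395 in day 4 pMN and 817 in day 4 p3. It was 6034 in day 6 p0-1 and 1957 in day 6 p3. The Tox3 element (Tox3 encodes an HMG-box protein) went from 24.5 in NMPs to 1581 to 2188 across day 4 types, an 81.2-fold difference in pMN, and stayed between 2821 and 3195 on day 6. The Gm30731 element went from 73.0 to 2093 in pMN. The Meis2 element, near a homeobox gene of the TALE family, differed less, from 887 to 1896, and was not called.

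From day 3 to day 4 the share of elements called higher rose with distance from a TSS, and the share called lower did not. Elements were higher in 0.683% of those tested within 1 kb of a TSS, 13.7% at 1 to 10 kb, 26.2% at 10 to 50 kb, 46.8% at 50 to 200 kb and 66.5% beyond 200 kb. Losses were most frequent at 1 to 10 kb, at 14.3%, and fell to 6.08% beyond 200 kb. More distant than nearer elements were higher in every stratum of the mean count over all samples. Below 100 counts this was 38.2% against 10.4%, and at 100 to 200 counts 65.3% against 25.1%. At 200 to 400 counts it was 77.8% against 38.6%, and above 400 counts 80.7% against 41.4%. Most samples behind that mean were NPs, so elements high in NMPs alone have low means. Losses were 25.6% against 30.6% below 100 counts and 0% against 0.504% above 400. The strata therefore do not remove the effect of the minimum. The distant elements within 1000 bp of a GENCODE TSS were unlike the rest, with 31 of 118 tested higher (26.3%), whereas 79.4% of the 102 tested beyond 200000 bp from every GENCODE TSS were higher. These shares describe the classes and were not tested against each other.

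**Figure D3:**
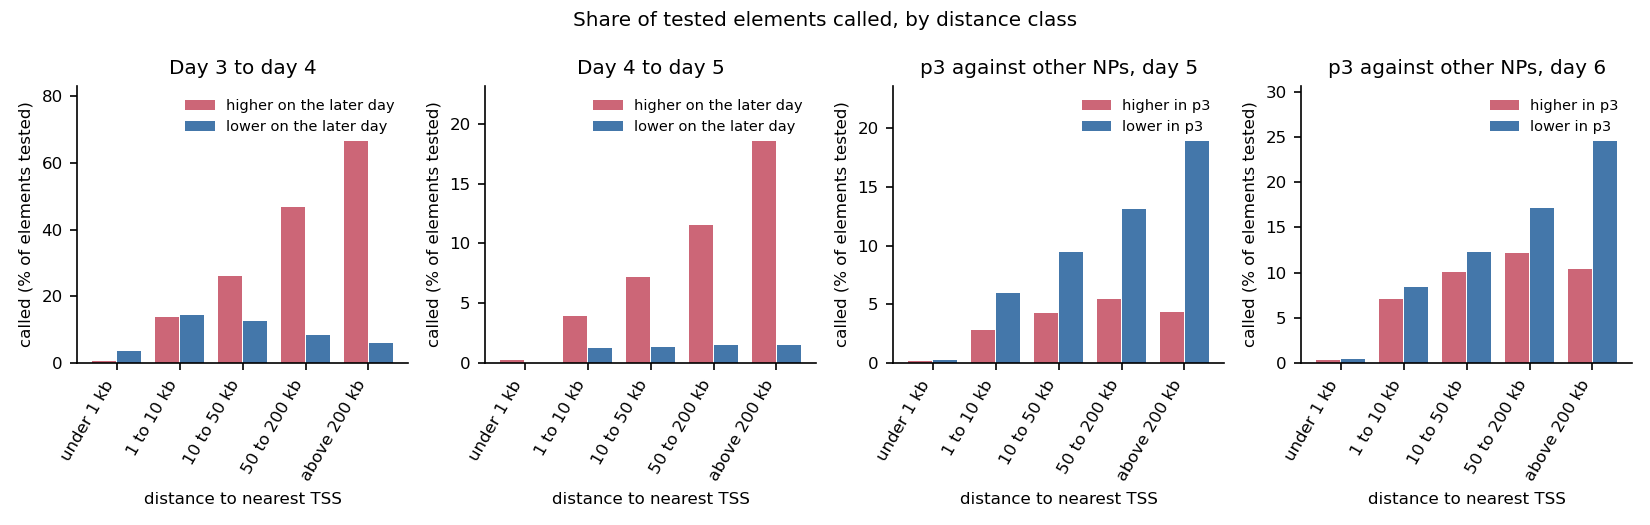
Percent of tested elements called higher or lower, by distance from the nearest TSS, for 2 comparisons of days and for p3 against the other NP types on days 5 and 6. For day 3 to day 4 the share called higher climbs from 0.683% within 1 kb to 66.5% beyond 200 kb, and for p3 on day 6 the share called lower climbs from 0.427% to 24.5%. The share called lower from day 3 to day 4 falls from 14.3% at 1 to 10 kb to 6.08%, and the share called higher in p3 is 12.2% at 50 to 200 kb and 10.4% beyond on day 6, and 5.44% and 4.34% on day 5.

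After day 4 the changes became fewer and remained mostly gains. From day 4 to day 5, 477 of 2573 distant elements tested were higher in at least 1 type (18.5%, nearer elements 7.23%, background 6.15%) and 38 were lower (1.48%, nearer elements 1.33%, background 0.957%). From day 5 to day 6, 46 of 3521 were higher (1.31%, nearer elements 0.487%, background 0.508%) and 6 were lower (0.170%, nearer elements 0.156%, background 0.116%). The count of 6 was 19 without replicate 3. Over all 12930 without a minimum, 20.0% were higher and 3.41% lower from day 4 to day 5, and 1.56% and 0.704% from day 5 to day 6.

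The Npas3 element, in an intron of a gene for a bHLH-PAS transcription factor of the developing brain, gained most in pMN from day 4 to day 5 (log2 fold change 5.07, adjusted p = 4.24e-11). The Fut8 element gained 4.72 in pMN over the same interval. Its 6 day 4 pMN samples had 13.8, 20.2 and 27.3 counts (lowest, median, highest) and its 5 day 5 pMN samples had 427, 485, 513, 632 and 779.9. In p3 it moved from a mean of 12.2 to 85.2, and on day 6 it was 179 in p3 and 1027 to 1280 in the other types, a 7.14-fold difference from pMN. In p3, the Tmem161b element gained 4.71 from day 4 to day 5 and the Rasgef1b element 4.20. The losses were smaller: 2 elements nearest Pmp22, a myelin protein gene, changed by -3.08 and -2.88 in pMN, and the Cntnap5a and Nr5a2 elements changed by -2.89 and -2.70 in p3. From day 5 to day 6 in p3 the 2 largest gains were in the 1700123O21Rik element (2.65) and the Auts2 element (2.32).

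The comparison between NP types asked which elements set p3, the most ventral type, apart from p0-1, p2 and pMN. On day 4, 35 of 1568 distant elements tested were higher in p3 than in at least 1 other type (2.23%, nearer elements 1.11%, background 0.827%) and 77 were lower (4.91%, nearer elements 2.01%, background 1.52%). These counts depended on single replicates, since 14 were higher without replicate 3 and 40 lower without replicate 1. On day 5, 104 of 2394 were higher (4.34%, nearer elements 4.29%, background 2.9%) and 452 were lower (18.9%, nearer elements 9.48%, background 7.2%). On day 6, 294 of 2830 were higher (10.4%, nearer elements 10.0%, background 6.99%) and 694 were lower (24.5%, nearer elements 12.3%, background 9.93%). The share higher in p3 was close to that of nearer elements on days 5 and 6, while the share lower was larger. Without a minimum, 1741 of 12930 were higher on day 6 (13.5%, nearer elements 10.4%) and 2946 lower (22.8%, nearer elements 10.3%), and 39.5% of all distant elements had a higher mean in p3 than in pMN, against 49.8% of nearer elements.

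The same elements recurred across days. Of the 77 lower in p3 on day 4, 54 were also lower on day 6 (70.1% of the day 4 list, 7.78% of the day 6 list), and 360 of the 452 lower on day 5 were lower on day 6 (79.6% and 51.9%). Of those higher in p3, 24 of 35 on day 4 and 98 of 104 on day 5 were higher on day 6 (68.6% and 94.2%), which made up 8.16% and 33.3% of the 294. No element was higher in p3 on day 4 or 5 and lower on day 6. These overlaps were not counted for nearer elements. Same-numbered samples of days 5 and 6 correlated in their deviations from group means (median r 0.483 over 146 pairs), so the days are not independent. The elements lower in p3 on day 6 were nearly closed in NMPs, with a median of 5.07 normalized counts over the 694. This was not particular to them, since the NMP median over all 12930 distant elements was 4.63. Their medians were 51.2 to 65.9 in the other types and 26.2 in p3 on day 4, 154 to 189 and 36.4 on day 5, and 192 to 226 and 37.3 on day 6. The 294 higher in p3 had a median of 5.86 in NMPs, and 74.1, 181 and 277 in p3 over the 3 days, while the other types ran from 21.2 to 53.2. These elements were selected on day 6, so their day 6 values describe the selection.

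The single elements with the largest changes are given next. Like all elements named for the largest change, they were picked among calls whose groups did not overlap. Their separation between p3 and pMN therefore follows from that choice. The Esr1 element, in an intron of the estrogen receptor alpha gene, had 212, 221, 316 and 334 counts in the 4 day 6 pMN samples and 1.15, 3.88, 11.2 and 11.5 in the 4 p3 samples (log2 fold change -5.10, VST difference -4.10 ± 0.309 SE, adjusted p = 8.67e-06). In NMPs it had 2.42, 2.70 and 4.31 counts, so the p3 samples lay near the NMP level and every pMN sample lay far above it. The Mir466f-4 element was the reverse, with 0, 2.69, 8.45 and 14.0 counts in pMN and 139, 158, 363 and 562 in p3 (log2 fold change 5.39, adjusted p = 0.000118). One of the 6 p2 samples reached 145 counts, inside the range of p3, and the other p2 samples had 33.1 or less. The Exoc4 and Pcp4 elements were also higher in p3 than in pMN, by 5.28 and 5.25 (log2), and the Dnajc24 and Rprl2 elements lower, by -4.78 and -4.69.

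Elements near developmental transcription factor genes went both ways. Of 233 tested, 25 were higher in p3 on day 6 (10.7%) and 34 lower (14.6%), against 10.4% and 24.5% of all distant elements tested, and over all 742 near these genes the median log2 fold change from pMN to p3 was -0.19, against -0.35 over all distant elements and 0.00 over nearer elements. The Gli3 element (Gli3 is the main transcriptional repressor of the Sonic hedgehog pathway) had 665, 731, 904, 1057 and 1068 counts in day 6 p0-1, 75.9, 94.2, 160 and 207 in pMN, and 2.31, 3.88, 10.2 and 14.8 in p3. Its levels fell from dorsal to ventral with no overlap between these 3 types, and the means were 885, 134 and 7.80. The Sall1 element (Sall1 encodes a zinc finger repressor) differed in the other direction, with 465, 495, 532 and 539.9 counts in p3 and 8.97, 16.0, 20.0 and 66.6 in pMN (log2 fold change 4.14, VST difference 3.93 ± 0.363 SE, adjusted p = 2.25e-05).

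Elements nearest Klf6, Klf4 and Nr2f2 were higher in p3 than in pMN as well, by 4.64, 3.61 and 3.90 on the log2 scale. Klf6 and Klf4 encode Kruppel-like factors and Nr2f2 the nuclear receptor COUP-TFII. Elements nearest Dach1 (-4.38) and Nr2f1 (-2.86) were lower in p3 than in pMN. Dach1 is a transcriptional corepressor and Nr2f1 the nuclear receptor COUP-TFI. The Irx1 element was lower in p3 than the mean of the other types, with a difference of -3.98 on the log2 scale, and Irx1 encodes a homeodomain factor. The Irx1 element and the Mir466f-4 element lay in the same interval, between Adamts16 and Irx1, and differed in opposite directions between p3 and the other types.

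Near genes for cell adhesion and axon guidance, more elements were lower than higher in p3. Of 276 tested on day 6, 92 were lower in p3 (33.3%) and 11 higher (3.99%), against 24.5% and 10.4% of all distant elements tested and a background of 9.93% and 6.99%. The median log2 fold change from pMN to p3 over all 1373 was -0.55, against -0.35 over all distant elements. Many of these share a gene and so are not independent. The Robo2 element, in an intron of an axon guidance receptor for Slit proteins, had 240, 243, 705, 741 and 821 counts in day 6 p0-1 and 0.971, 2.03, 3.46 and 9.89 in p3, with 1.35, 2.15 and 0 in NMPs. Its 4 pMN samples ranged widely, from 29.2 to 269, and did not overlap p3. The Slit2 element, near the gene for one of the Slit ligands, had means of 302 in p0-1, 101 in p2, 34.7 in pMN and 5.96 in p3. The Dab1 element (reelin signaling), the Tenm1 element (a teneurin) and the Unc5c element (a netrin receptor) were at means of 7.42, 2.62 and 3.34 in p3 and of 553, 254 and 194 in p0-1. Elements near the cadherins Cdh6 and Cdh12, the adhesion molecule Ncam2, the protocadherin Pcdh15 and Cntnap2 had means that fell in order from p0-1 to p3, where they were 1.75 to 9.11.

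The remaining lists held fewer elements, and the same shares of all distant elements, 24.5% lower and 10.4% higher, stand beside them. Near neurotransmitter receptor and ion channel genes, 18 of 54 tested were lower in p3 (33.3%) and 7 higher (13.0%), with a median log2 fold change of -0.38 over all 261, against -0.35 over all distant elements. This list held the Kcnma1 element (a potassium channel) at a mean of 465 in p0-1 and 6.34 in p3, and the Gabrb2 element (a GABA-A receptor subunit) at 208.8 in p3 and 27.0 in pMN. Near secreted signals and their receptors, 6 of 31 were lower (19.4%) and 5 higher (16.1%), with a median of -0.07 over all 187. There the Ntrk3 element (the neurotrophin-3 receptor) was lower in p3 than in pMN by -3.83 and the Wnt5a element by -2.44, the Erbb4 element (a neuregulin receptor) was higher by 3.03, and the Bmper element, at 218 in p3 and 168 in pMN, did not pass the test. The Bmper element was called higher in p3 than in p0-1, where its mean was 44.0 (log2 fold change 2.28, adjusted p = 3.92e-06 by limma). From day 3 to day 4, 70.7% of tested elements near transcription factors, 70.5% near adhesion and guidance genes, 68.4% near signals and 81.5% near receptors and channels were higher, with 66.5% for all distant elements.

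Differences among p0-1, p2 and pMN were rarer than those of p3. On day 4, 23 of 1633 distant elements tested were higher in the more ventral type of at least 1 pair (1.41%, nearer elements 0.578%, background 0.479%), and none were lower, where the background was 0.0129%. By limma, 204 had an unadjusted p under 0.05 in that direction, 1 of them past the fold change, and limma voom on recovered reads called 23 in both directions together. On day 5, 69 of 2475 were higher (2.79%, nearer elements 2.40%, background 1.53%) and 33 lower (1.33%, nearer elements 0.561%, background 0.402%). On day 6, 135 of 2778 were higher (4.86%, nearer elements 3.83%, background 2.52%) and 75 lower (2.70%, nearer elements 0.957%, background 0.821%). Without replicate 2 the day 6 counts were 78 and 43.

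The 2810032G03Rik element shown above had 3.97, 4.66, 4.71, 6.76 and 8.71 counts in day 6 p0-1 and 223, 309.9, 348 and 423 in pMN (log2 fold change 5.60, VST difference 4.37 ± 0.204 SE, adjusted p = 5.4e-06). It was high in pMN alone among the 4 types, with means of 78.0 in p2 and 16.9 in p3. A second element nearest the same gene, at chr12:5999043-6000192, showed the same order, with means of 30.6, 179, 643 and 42.6 from p0-1 to p3. The Efnb2 element at chr8:7850199-7850972 (Efnb2 encodes an ephrin ligand) was 22.2-fold higher in pMN than in p0-1 and 14.0-fold higher than in p3. The Grin2a element, in an intron of an NMDA receptor subunit gene, ran the other way, with 126, 136, 209.6, 330.1 and 509.5 counts in p0-1, 5.84, 9.02, 13.1 and 17.9 in pMN and 2.31, 3.05, 4.95 and 5.83 in p3. From p0-1 to pMN the log2 fold change was -3.70 in the Arap2 element and -3.69 in the Slc8a1 element. The Slc8a1 call was lost without replicate 2, at -3.39.

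**Figure D4:**
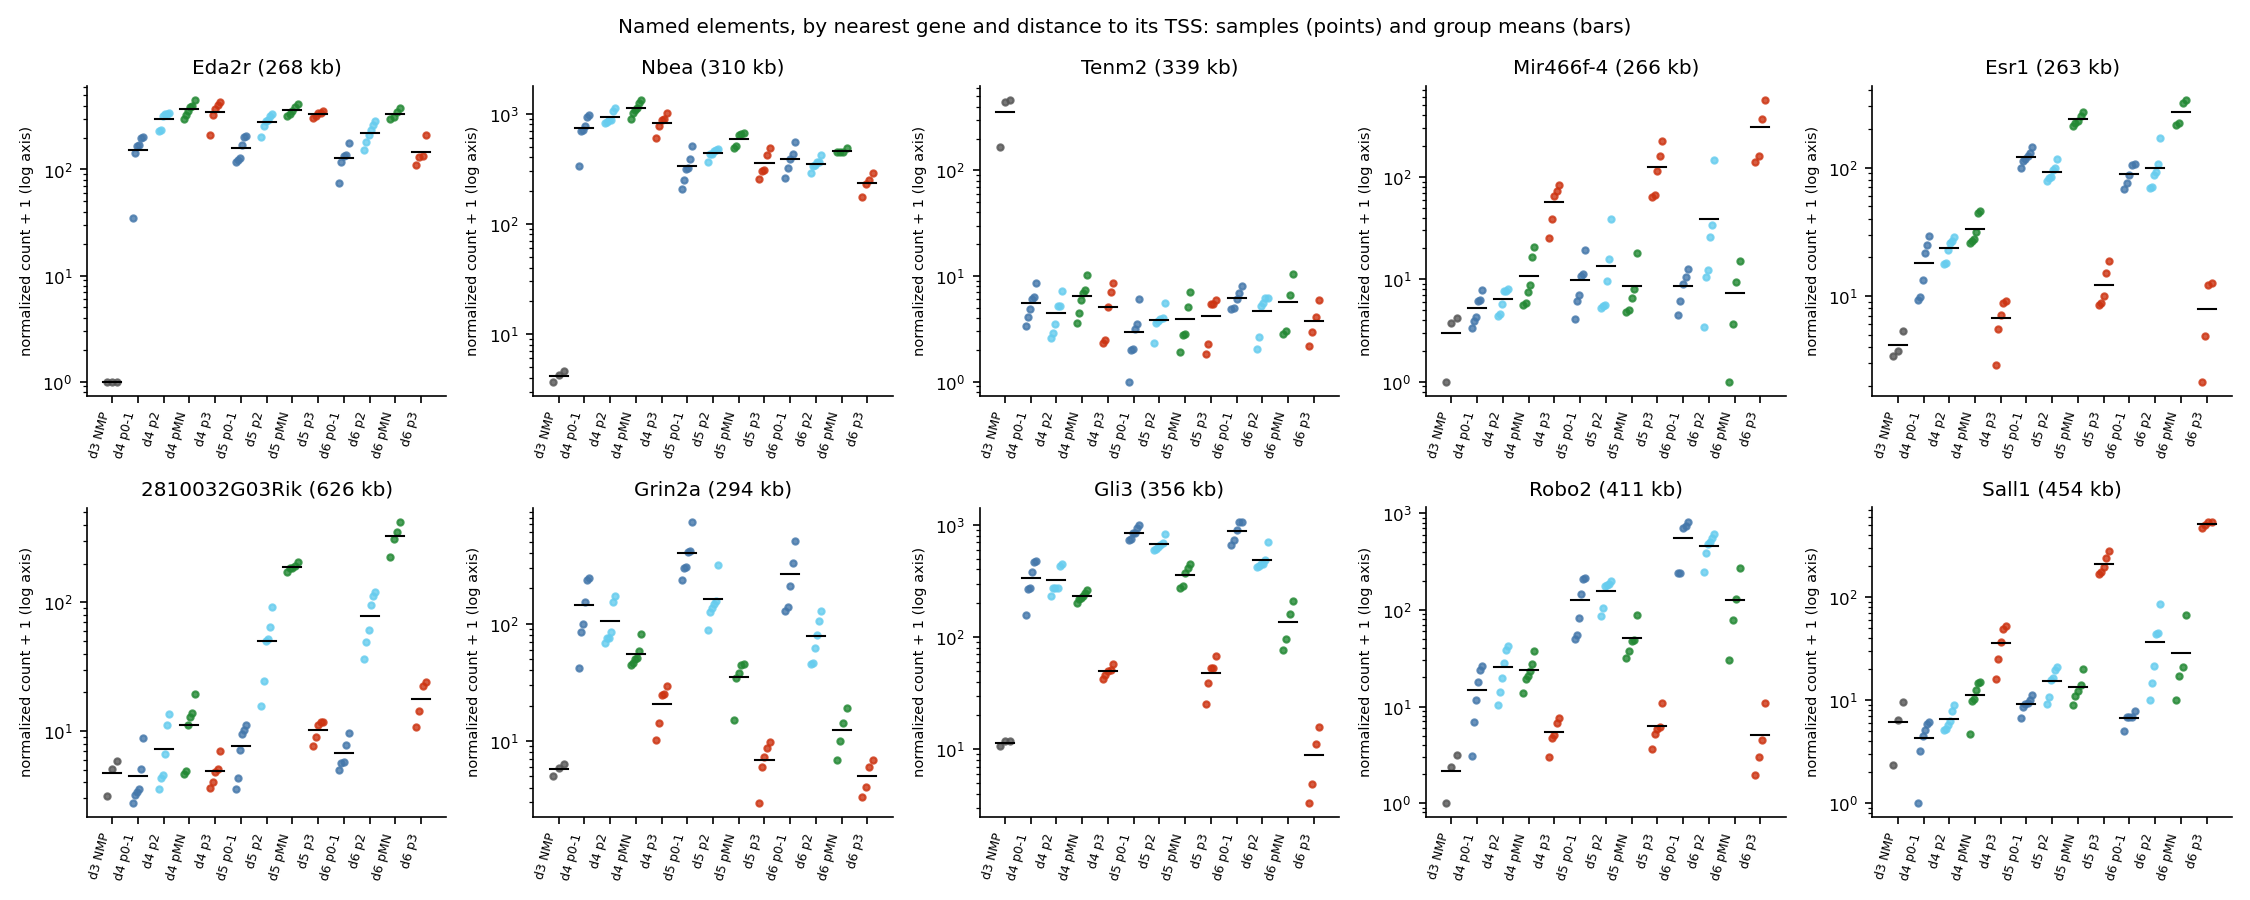
Normalized counts of 10 named distant elements in each sample (points, log axis, count plus 1) by day and cell type. The Eda2r and Nbea elements rise from NMPs to day 4 in all types and the Tenm2 element falls, the Esr1, Gli3, Robo2 and Grin2a elements are lowest in p3 on day 6, the Mir466f-4 and Sall1 elements are highest in p3, and the 2810032G03Rik element is highest in pMN.

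A small group of distant elements hardly varied. The Pex2 element, second highest in mean (3071), had an SD over condition means of 0.185 on the VST scale, with 3718 counts in NMPs, 3015 in day 6 pMN and 3018 in day 6 p3. The smallest spreads among those with a mean above 100 were those of elements nearest Lrig3 (0.116), Pcmtd1 (0.117), Nrxn3 (0.145), Dlgap1 (0.149) and A730082K24Rik (0.151). The Pcmtd1, Nrxn3 and Dlgap1 elements lay 26, 201 and 314 bp from a GENCODE TSS and had a GC content of 61.7%, 61.7% and 71.3% in their central 300 bases, where the median of distant elements was 43.3%. The Lrig3 and A730082K24Rik elements lay 41252 and 45539 bp from one.

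The most remote elements with a mean above 100 were 1922930 bp from Olfm4, 1922083 bp from Rag2 and 1869268 bp from Gm26851. The Rag2 element had means of 2.56 in NMPs, 22.6 to 34.8 on day 4, and 309, 346, 315 and 88.9 from p0-1 to p3 on day 6. Its difference between p3 and pMN on day 6, -1.81 on the log2 scale, was under the fold change required. The Olfm4 element was at 13.5 in NMPs and at 89.4 in p0-1, 159 in p2, 270.3 in pMN and 251 in p3 on day 6. Beside them, the 3 elements just outside the limit of 200000 bp (nearest Tmem178b, Ankrd55 and Celf4, at 199982, 199987 and 199997 bp) had overall means of 65.7, 261 and 755 and SDs over condition means of 0.742, 0.824 and 0.724, and the 3 just inside it (nearest 1700020N15Rik, Nxpe2 and Clnk, at 200013, 200022 and 200056 bp) had means of 53.0, 322 and 34.0 and SDs of 0.683, 1.44 and 0.829.

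Distant elements are confined by definition to stretches far from an annotated TSS, and their direction in p3 was often mixed within an interval. The median distance from a distant element to the nearest other one was 11236 bp, and 24.6% had another within 5000 bp. The spacing of nearer elements was not measured, so these values do not show clustering. The nearest genes with most of them were Efnb2 (64), Tenm3 (52), Got2 (51), Dmac1 and Gm20268 (47 each), Dcc and Pcdh9 (44 each), Nrxn3 (42), and Ntm and Pard3 (41 each). Several of these encode surface proteins of axons and synapses, such as the netrin receptor Dcc, the teneurin Tenm3 and the neurexin Nrxn3. Of the 17 elements nearest Efnb2 that were tested for p3 on day 6, 1 was higher and 6 lower, and of the 15 nearest Tenm3, 1 was higher and 8 lower, where 10.4% of all distant elements tested were higher and 24.5% lower (background 6.99% and 9.93%).

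Of 361 intervals between protein-coding genes that held an element called in p3 on day 6, 171 held at least 2. In 86 of these all were lower in p3, in 12 all were higher and in 73 both directions occurred. Neighboring called elements had the same direction in 18 of 23 pairs within 5 kb of each other (78.3%), 79 of 117 at 5 to 50 kb (67.5%), 189 of 303 at 50 to 500 kb (62.4%) and 311 of 525 beyond 500 kb (59.2%). Because 70.2% of the 988 called elements were lower, 58.2% of pairs drawn without regard to position would share a direction, and the share beyond 500 kb was close to it. In 4 intervals chosen after their values were seen, between Slc10a2 and Efnb2 2 were higher and 8 lower of 26 tested among 97 distant elements, between Nr2f1 and Arrdc3 4 were higher and 4 lower of 20 tested among 57, between Cntnap5b and Cdh20 0 were higher and 7 lower of 10 tested among 59, and between Kcnj2 and Sox9 0 were higher and 6 lower of 19 tested among 54. The Sox9 interval is a well known gene desert upstream of a gene for a factor of neural stem cells and cartilage. In each of the 4 intervals most elements had a higher mean in day 4 pMN than in NMPs, with 85, 55, 48 and 46, respectively, as did 81.3% of all distant elements.

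**Figure D5:**
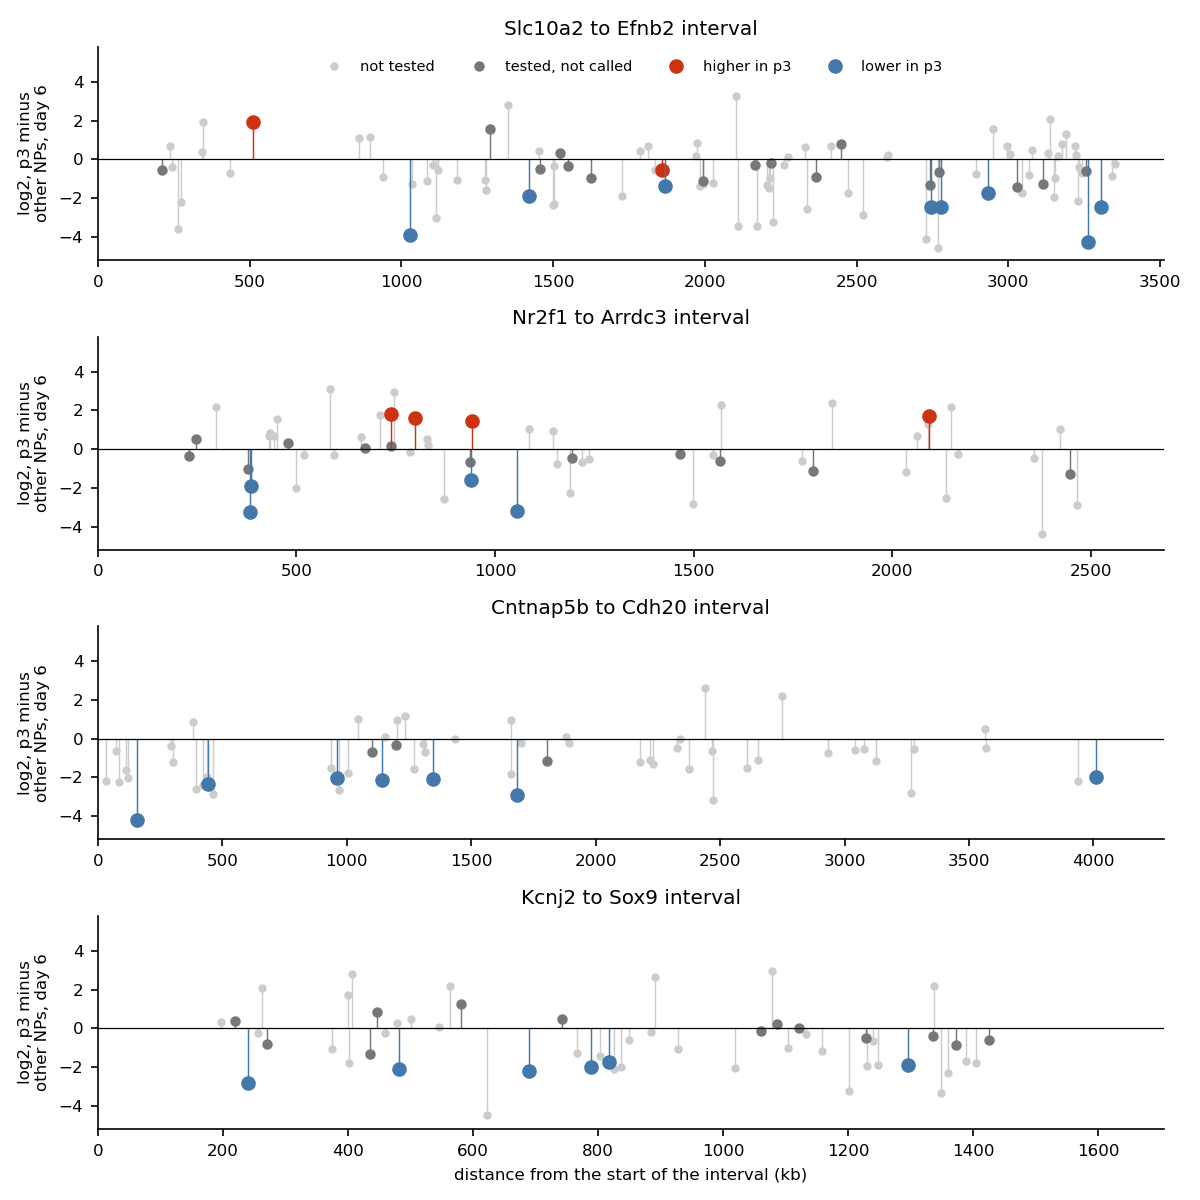
Distant elements along 4 intervals between protein-coding genes, by distance from the start of the interval (kb), with the log2 difference of day 6 p3 from the mean of the other NP types as height. Color marks elements called higher (red) or lower (blue) in p3 against at least 1 other type, dark gray those tested and not called, and light gray those under the minimum count. Between Cntnap5b and Cdh20 and between Kcnj2 and Sox9 every called element is lower in p3, between Nr2f1 and Arrdc3 4 are higher and 4 lower, and 1 of the 2 elements called higher between Slc10a2 and Efnb2 lies just below 0, as its height is taken against the mean of all other types.

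The base composition and motif content of distant elements differed from those of nearer elements. Over the central 300 bases their median GC content was 43.3%, against 48.3% for nearer elements. The SOX letters were found in 30.7% of distant and 21.1% of nearer elements, the homeodomain letters in 12.0% and 7.79%, and the CTCF core (AGGGGGC or AGGTGGC) in 7.59% and 12.9%. SOX and homeodomain factors are the main classes of regulator in neural progenitors, and CTCF binds many sites near promoters and domain boundaries. Motifs rich in A and T are more frequent in sequence of lower GC content, and no correction was made for it.

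Motif shares also varied among distant elements with their behavior. SOX letters were in 36.5% of those higher and in 14.1% of those lower on day 4 than day 3, where 30.3% of all tested had them. The GC content of these groups also differed, with medians of 44.0% and 49.3%, and in nearer elements the SOX shares were 30.8% and 12.0%. FOX letters were in 10.2% of those higher in p3 on day 6 and in 2.88% of those lower, where 5.55% of all tested had them. RFX letters were in 8.50% and 4.47% (5.37% of all tested), and the CATATG E-box in 3.40% and 8.07% (6.08% of all tested). In nearer elements higher or lower in p3 the shares were 13.4% and 2.94% for FOX, 8.84% and 3.57% for RFX, and 5.35% and 7.76% for CATATG. The factors bound at these elements were not measured here, and these shares were not tested.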

How the data were processed

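The authors aligned CaTS-ATAC reads to mm10 with the nf-core ATAC-seq pipeline, called peaks with MACS, merged them into consensus elements found in at least 2 replicates, counted reads per element with featureCounts, annotated elements with HOMER and deposited log2 values after the variance-stabilizing transformation (VST) of DESeq2. Values of 111638 elements in 67 samples were used, and 21911 annotated elements without values were left out. Inverting the transformation gave whole reads for every value under 1000 reads (within 3.63e-11 of a read), and normalized counts are those reads divided by size factors, which ranged from 0.495 to 1.50. Count models that need deposited counts were not run. Depth was 9298160 to 29985325 reads in elements per sample, and no 2 samples agreed within sampling noise (chi-square per degree of freedom at least 1.90).

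Each comparison was a linear model of VST values in limma 3.58.1 (R 4.3.3) with a variance trend, over all elements whose samples in that comparison averaged more than 100 normalized counts, with samples of all SAG concentrations pooled by cell type and day. Calls needed a two-sided Benjamini-Hochberg adjusted p under 0.01 and a log2 fold change of mean normalized counts plus 1 beyond 2, after the thresholds the study used. An element counted once if called in at least 1 fit of a family. The fits were tested on simulated data. Replicate numbers of the titles paired samples on days 5 and 6. There, deviations from group means of same-numbered samples of different groups correlated in every pair (lowest r 0.326 over 71 pairs and 0.166 over 59 pairs). On day 4 the pairing was present but not in every pair, with 69 of 77 pairs above 0.1. The median r on day 4 was 0.618 for the same number and -0.286 for different numbers. Deviations from a group mean cancel out within the group, so the negative value follows from the positive one and adds no evidence. The descriptions number 15 samples differently, 10 of them on day 6, and under those numbers 57 of 71 and 44 of 59 pairs were above 0.1, so the block and the left-out replicates use the titles. Alternatives were a replicate block, other thresholds, no minimum, median centering, voom on the recovered reads, other distance limits and leaving out replicates.

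Named elements were the largest changes per comparison among calls with groups that did not overlap, those with the highest means, smallest spreads and longest distances, those next to the limit, and up to 10 per gene list by the p3 difference on day 6. Some elements that these rules named are not reported here. Sequences and GENCODE M21 annotation were of GRCm38. Distant elements, gene lists and rules were chosen with earlier results of these data known. Tables were handled in Python 3.11.15 with pandas 2.3.3, numpy 2.4.6 and scipy 1.17.1, and plots were drawn in matplotlib 3.10.9.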

Additional observations from a re-analysis of the deposited data

Results flagged for a closer look

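Among 68 groups of samples tested behind the named elements, 3 held a sample separated from the others by more than Dixon's 95% criterion. About 1 in 20 would be by chance if the groups were independent, but many of them share samples. The lowest day 4 p3 sample of the Ppp1r2-ps9 element had 76.71 normalized counts, where the other 4 had 229 to 263. The lowest day 6 p0-1 sample of the 2810032G03Rik element at chr12:5999043-6000192 had 7.064, where the other 4 had 31.5 to 38.9. The highest day 4 p3 sample of the Rasgef1b element had 39.48, where the other 4 had 18.4 to 23.2.

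The change of the Fut8 element from day 4 to day 5 differed between p3 and pMN. On the VST scale the change in p3 minus that in pMN was -2.092 (interaction term in limma, adjusted p = 1.09e-05), with means of 12.2 and 85.2 normalized counts in p3 and 20.5 and 567 in pMN on the 2 days. It was 1 of 7 named elements with this test, which was chosen after seeing the data, and 5 of 1741 distant elements tested met the same thresholds on the VST scale, among 41 of 30875 elements.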

How the results depend on the processing

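Counts of called distant elements are given in the order day 3 to 4, 4 to 5 and 5 to 6, p3 against the other types on days 4, 5 and 6, and among p0-1, p2 and pMN on days 4, 5 and 6, in both directions together. They were 1097, 515, 52, 112, 556, 988, 23, 101 and 207. With voom on the recovered reads they were 1094, 514, 52, 109, 552, 944, 23, 99 and 196. A replicate block in the fit gave 1097, 515, 54, 112, 556, 990, 24, 101 and 209, so the pairing changed no count by over 1.5 times. Median centering and restriction to intergenic elements kept every count within 1.5 times.

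Calls at a 2-fold difference gave 1345, 565, 448, 1312, 1802, 155, 558 and 716 for all but the first comparison, which stayed within 1.5 times. A limit of 500000 bp, which leaves fewer elements, gave 213, 120, 22, 24, 134, 236, 7, 33 and 56. With no minimum on the mean the counts were 7638, 3031, 293, 985, 3590, 4687, 190, 937 and 1225. A difference above 2 on the VST scale, an alternative chosen after seeing the data, gave 30 from day 5 to day 6. Leaving out each replicate number in turn gave 1080 to 1167, 470 to 609, 43 to 75, 85 to 129, 502 to 620, 914 to 1217, 19 to 34, 99 to 115 and 121 to 202 counts, where the lowest value on day 6 among p0-1, p2 and pMN was without replicate 2.

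The median SD of condition means over distant elements, 0.709, was 1.03 for those with a mean above 100, 1.09 on log2 of normalized counts plus 1, 0.735 beyond 500000 bp, and 0.718 to 0.738 without each replicate. Of 34 calls of named elements, 1 was lost under any alternative tried, the Slc8a1 element (-3.39 without replicate 2). Another 2 without replicate 2 and 7 without replicate 3 fell to the minimum count or below and were not tested. Most distant elements had too few reads to be tested under the minimum, so the counts cover the stronger ones.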

Other observations

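The sample group in which an element was most accessible differed between distant and nearer elements. Among those with a mean above 100 normalized counts, 94 of 1908 distant elements had their highest group mean in NMPs (4.93%), against 29.7% of nearer elements. Day 6 pMN was the highest group for 483 distant elements (25.3%), against 16.3% of nearer ones, and day 6 p3 for 204 (10.7%), against 12.6%. Of the 1005 distant elements higher on day 4 than on day 3, 188 were lower in p3 on day 6 (18.7% of the first list, 27.1% of the second) and 71 were higher (7.06% and 24.1%). Of the 833 that were tested on day 6 this was 22.6% and 8.52%, where 24.5% and 10.4% of all distant elements tested were lower and higher.

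Protein-coding genes that contained many distant elements within their own span were large genes, which largely follows from the distance limit. An element inside a gene lies that far from the gene's own TSS only if the gene is long. Nrxn3, a neurexin, held 70, Macrod2, a mono-ADP-ribosylhydrolase, held 59, Wwox, a WW domain oxidoreductase, held 54 and Ptprd, a receptor phosphatase of synapses, held 53. Distant elements inside protein-coding genes were higher from day 3 to day 4 in 62.4% of 503 tested, against 68.5% of 1009 between protein-coding genes, and lower in p3 on day 6 in 21.1% of 861 against 26.0% of 1969. These shares were not tested against each other.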
